A study of Homo sapiens with 9 samples.

Results

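Restoration of wild-type ARID1A was compared with the vehicle DMSO in OVISE, an established line of human clear cell ovarian carcinoma that is labelled as ARID1A mutated. The comparison used 6 of the 9 arrays of the study, the 3 titled ARID1A and the 3 titled DMSO, which were chosen by title and matched by replicate number, and the labels give the same number as the batch. Cells of every group grew in 3 dimensions in Matrigel, an extract of basement membrane. The DMSO group received vehicle and the ARID1A group received 1 µg/mL doxycycline, which induces wild-type ARID1A. The other 3 arrays, from cells given 5 µM GSK126, an inhibitor of the histone methyltransferase EZH2, entered the model only to help estimate batch and spread. Doxycycline was given to the ARID1A group alone, so that effects of the drug and of the induced protein cannot be told apart. The labels do not say which promoter drives the induced gene, whether the cells were a clone, or whether the DMSO cells carried the construct.

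ARID1A is a subunit of the SWI/SNF complexes, which use ATP to slide or evict nucleosomes and so open enhancers and promoters. It defines the BAF form of the complex, and inactivating mutations of ARID1A are frequent in clear cell carcinoma of the ovary. In such tumours the complexes still form around the related subunit ARID1B, with altered access to a part of their sites. Restoring the protein in a mutant line asks which transcripts change when the lost subunit returns.

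Total RNA was hybridised to an Illumina array of 47323 probes, on which the 6 arrays had 21317 to 22517 probes above background (detection p below 0.05) and median raw intensities of 316.645 to 337.09. Levels are given below as normalised log2 intensities, in the order of batches 1, 2 and 3. Differences are ARID1A minus DMSO on the log2 scale, with the standard error (SE) of the limma model with batch as a block, and a gene is called where its adjusted p over 12698 genes is below 0.05. Nothing in the labels tells whether the 3 replicates of a group were cultures of their own. The p-values therefore cover only the spread seen between these arrays, part of which may be technical, and precision is limited by their number.

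All 7 clear cell carcinoma markers tested were above background on the 6 arrays. Among them PAX8, a transcription factor of the Müllerian epithelium, read 13.92, 14.11 and 14.03 in DMSO and 13.87, 14.33 and 13.94 with ARID1A, and the secreted phosphoprotein SPP1 read 15.88 to 16.09 over the 6 arrays. GPX3, a secreted glutathione peroxidase, was the one marker called, at 12.34, 12.83 and 12.51 in DMSO and 13.30, 13.54 and 13.71 with ARID1A (difference 0.96, SE 0.11, limma adjusted p = 0.00770). Of 6 epithelial markers 5 were tested, and their summed linear signal ran from 206535 to 212258 in DMSO and from 234893 to 258135 with ARID1A. Among them KRT8 was called, KRT19, CDH1 and KRT7 had differences of 0.30, 0.31 and 0.34 without overlap and without a call, and EPCAM lay between 16.04 and 16.11. Of 10 leukocyte markers 5 were tested and 0 were called. Over all genes 6.1% were called, so the count of calls in a list this small says little, here and for the other markers. The summed linear signal of the 5 leukocyte markers ran from 4330 to 4646 in DMSO and from 4242 to 5012 with ARID1A. These 5 were CD68 (means of 11.55 in DMSO and 11.50 with ARID1A), HCLS1 (9.83 and 10.21, without overlap), ITGAM (8.23 and 7.89), CD14 (6.93 and 7.28) and LYZ (6.77 and 7.04). The leukocyte-defining PTPRC, CD3D, CD3E and MS4A1 were not above background on at least 3 of 9 arrays, nor were the fibroblast genes COL1A1, COL1A2, COL3A1, DCN and LUM. Of 8 fibroblast markers FBLN1 alone was tested. It was above background on all 9 arrays, with a mean of 12.38 in both groups, and was not called. Of 7 endothelial markers only VWF, the clotting factor carrier, was tested. It was above background on 0 of 3 DMSO arrays and 3 of 3 ARID1A arrays, at 7.28, 7.23 and 7.33, at least 1.43-fold higher (limma adjusted p = 0.00104), while PECAM1 and CDH5 were not above background. VWF passed the filter only through its ARID1A arrays, so its call is not independent of that filter. Whether a shift in cell types took part in any result below was not tested, and in bulk RNA fewer cells of a type and less RNA per cell cannot be told apart.

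The induced gene itself was read by 2 probes. ILMN_1734496 read 5.92, 5.50 and 5.63 in DMSO, where it was above background on 0 of 3 arrays, and 8.57, 8.34 and 9.09 with ARID1A, where it was above background on 3 of 3. ILMN_1797341 lay between 10.82 and 11.13 on all 6 arrays, and the groups overlapped (difference −0.13, SE 0.08, limma adjusted p = 0.385). The 2 probes therefore do not move together, and which part of the transcript each one covers was not analysed here.

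Of 12698 genes, 774 (6.1%) were called, of which 485 (3.82%) were higher and 289 (2.28%) were lower with ARID1A. The rises were more numerous at large sizes: 105 genes (0.827%) were called and at least 2-fold higher against 21 genes (0.165%) at least 2-fold lower, and 15 against 5 passed 4-fold. Most calls were small, with a median difference of 0.62 among the higher and a median size of 0.55 among the lower genes, and 214 and 168 of them lay under 1.5-fold. Over all genes the median difference was −0.0027 and the central 90% ran from −0.40 to 0.44. All 774 called genes had 1 sign in the 3 batches, which held for 48.1% of all genes. The 3 ARID1A arrays lay wholly above or below the 3 DMSO arrays for 718 of the called genes, where 13.3% of all genes did not overlap upwards and 11.9% downwards. Both outcomes were largely set by choosing the called genes on these same arrays, so they are not independent support for the calls. Without the batch block 361 genes (2.84%) were called, 255 (2.01%) higher and 106 (0.835%) lower, and 354 of them were among the 774. Over all 23014 kept probes 2.72% were called, 1.76% higher and 0.965% lower. Leaving out any 1 of the 6 arrays lowered the counts to 85 to 266 higher and 19 to 147 lower, lowest without DMSO replicate 3 and highest without ARID1A replicate 2.

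**Figure D1:**
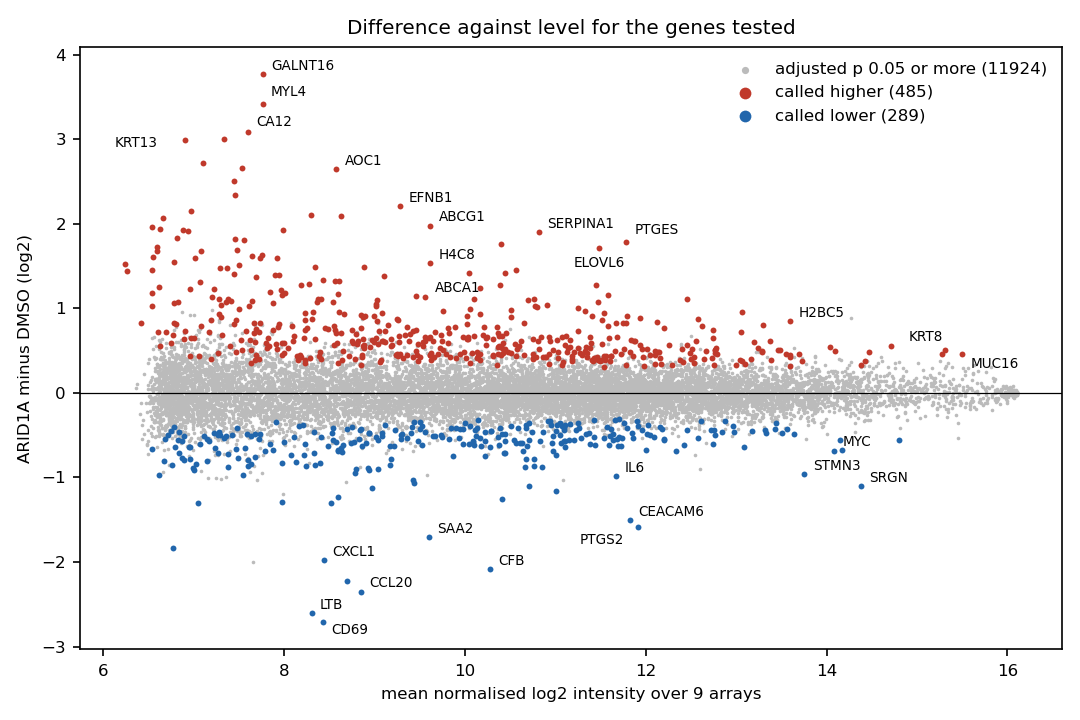
Difference between ARID1A and DMSO (vertical axis, log2) against the mean normalised log2 intensity over 9 arrays (horizontal axis) for the 12698 genes tested, 1 point a gene. Red points are the 485 genes called higher, blue points the 289 called lower, and the 20 largest rises lie at levels up to 9.62, while genes above 14 differed by 0.89 (TXNIP, not called) at most upwards and by −1.10 (SRGN) at most downwards.

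The share of genes called changed with level. With the genes split by mean level into 5 bins of equal size, 5.63% were called higher and 3.07% lower in bin 2, the second dimmest, and 2.01% and 0.984% in bin 5, the brightest, although the median SE was smallest there (0.0837, against 0.173 in bin 1). Of the genes called higher, 33 were above background on 0 of 3 DMSO arrays, and 16 of those called lower were above background on 0 of 3 ARID1A arrays. Genes of both kinds passed the filter only through arrays of other groups, so their calls are not independent of that filter. For such genes a bound is given, which sets the brighter mean against the lowest signal above background on each dimmer array, or against the probe's own signal where that is higher. These bounds hold for the background-subtracted scale used here. Without background correction, which leaves background in both signals, the differences of the 20 largest rises were 0.432 to 0.768 times as large on the log2 scale, and on the authors' normalised values 0.442 to 0.771 times. The fold without background correction was then below the stated bound for 16 of 17 named genes that have one, and it was 4.31 for GALNT16, 2.72 for KRT13 and 1.77 for IL1B. For the 32 named called genes with mean levels above 12 the differences without it were 0.935 to 0.995 times as large.

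Of the genes with the 20 largest rises 10 were above background on 0 of 3 DMSO arrays and 4 on 1 of 3. KRT13, a keratin of stratified and urothelial epithelium, read 5.66, 6.00 and 6.27 in DMSO and 8.36, 9.36 and 9.18 with ARID1A. Its 3 ARID1A arrays lay far above the DMSO arrays, at least 4.61-fold (limma adjusted p = 0.000680). CA12, a membrane carbonic anhydrase, read 6.63, 6.25 and 6.46 in DMSO and 9.65, 9.00 and 9.94 with ARID1A, at least 6.81-fold higher, and batch 2 was the lowest of both groups. PROM1, the CD133 protein of apical membrane protrusions, read 6.07, 6.14 and 6.61 in DMSO and 8.17, 7.74 and 8.70 with ARID1A, a rise of at least 2.71-fold at a limma adjusted p of 0.00319. CLDN2, a claudin that forms cation pores in tight junctions, read 6.26, 5.66 and 5.94 in DMSO and 8.06, 7.83 and 8.16 with ARID1A, a rise of at least 2.39-fold at a limma adjusted p of 0.00133. No array of either group came near the other group for these 4 genes. All 4 were above background on 0 of 3 DMSO arrays and passed the filter only through arrays of other groups. Their p-values are therefore not independent of that filter.

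OLFM4, a secreted glycoprotein of gut and other epithelia, was ordered by batch in both groups. It read 5.93, 6.38 and 7.05 in DMSO and 7.89, 9.32 and 10.14 with ARID1A, so that batch 1 was the lowest and batch 3 the highest in both groups, while the difference was positive in each batch (2.66, SE 0.24, limma adjusted p = 0.00349). Among DMSO arrays 1 of 3 was above background for OLFM4. AOC1, a diamine oxidase that degrades histamine and polyamines, had a like pattern at 7.08, 7.70 and 8.33 in DMSO and 9.99, 10.02 and 11.04 with ARID1A and was called with every single array or batch left out. With the block AOC1 had a limma adjusted p of 0.00113, and without it 0.00772.

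EFNB1, the Eph receptor ligand ephrin-B1, was well above background in both groups at 8.53, 8.58 and 8.46 in DMSO and 10.66, 10.37 and 11.18 with ARID1A. The difference was 2.21 (SE 0.22, limma adjusted p = 0.00424), and the DMSO arrays differed among themselves by far less than from the ARID1A arrays. ANKRD35 read 7.45, 7.46 and 7.49 in DMSO and 9.37, 9.47 and 9.89 with ARID1A, a difference of 2.11 (SE 0.11, limma adjusted p = 0.000677). GDPD5, a glycerophosphodiester phosphodiesterase, read 7.91, 7.86 and 7.84 in DMSO and 9.74, 9.79 and 10.35 with ARID1A, a difference of 2.09 (SE 0.16). For all 3 genes the DMSO arrays were nearly level and ARID1A replicate 3 was the highest array.

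GABBR2, a subunit of the GABA-B receptor, read 7.46, 7.80 and 7.19 in DMSO and 9.35, 9.40 and 9.47 with ARID1A, with narrow ARID1A values and wider DMSO values (difference 1.93, SE 0.18, limma adjusted p = 0.00371). HSPB8, a small heat shock protein, read 6.04, 5.88 and 5.83 in DMSO and 7.52, 7.65 and 8.45 with ARID1A and was at least 2.16-fold higher. The alcohol dehydrogenases ADH1A and ADH1C, near-identical neighbours whose probes may share transcripts, were above background on 0 of 3 DMSO arrays and were at least 2.89-fold and 2.15-fold higher. ADH1C lost its call with 4 of the 9 omissions of an array or a batch, and ADH1A with 2.

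Genes of cholesterol export and fatty acid metabolism were among the calls. ABCA1, which exports cholesterol and phospholipid to apolipoprotein A-I, read 9.72, 9.81 and 10.11 in DMSO and 11.17, 11.26 and 11.46 with ARID1A, a difference of 1.42 (SE 0.09, limma adjusted p = 0.00113) and one of the 4 narrowest over batches among called genes of at least 2-fold. ABCG1, which exports cholesterol to larger lipoproteins, read 8.88, 8.58 and 9.14 in DMSO and 10.65, 10.58 and 11.29 with ARID1A on its brightest probe (difference 1.98, SE 0.18). ABCG1 had 4 probes, with differences of 1.98, 1.97, 0.31 and 0.00, so that the rise was seen by 2 of them. ELOVL6, which elongates saturated fatty acids, read 10.70, 10.80 and 10.82 in DMSO and 12.44, 12.38 and 12.62 with ARID1A and was called in all 18 alternatives (difference 1.71, SE 0.09, limma adjusted p = 0.000677). Of 35 fatty acid, phospholipid and sphingolipid enzymes 4 rose and 1 fell (3 and 0 without the block), with a list median of 0.03. Over all genes 3.82% rose and 2.28% fell, and such shares are given here and below for scale only. The lists were chosen with earlier results of these data known, so that setting a list beside all genes is not a test. SMPD1, the lysosomal sphingomyelinase, rose by 0.71, the desaturase SCD5 by 0.45 and the elongase ELOVL4 by 0.43, while UGCG, which makes glucosylceramide, fell by 0.36, and ELOVL4 and UGCG were not called without the block (0.123 and 0.240). With any 1 of the 6 arrays left out 1 to 3 of the list rose and 0 fell.

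**Figure D2:**
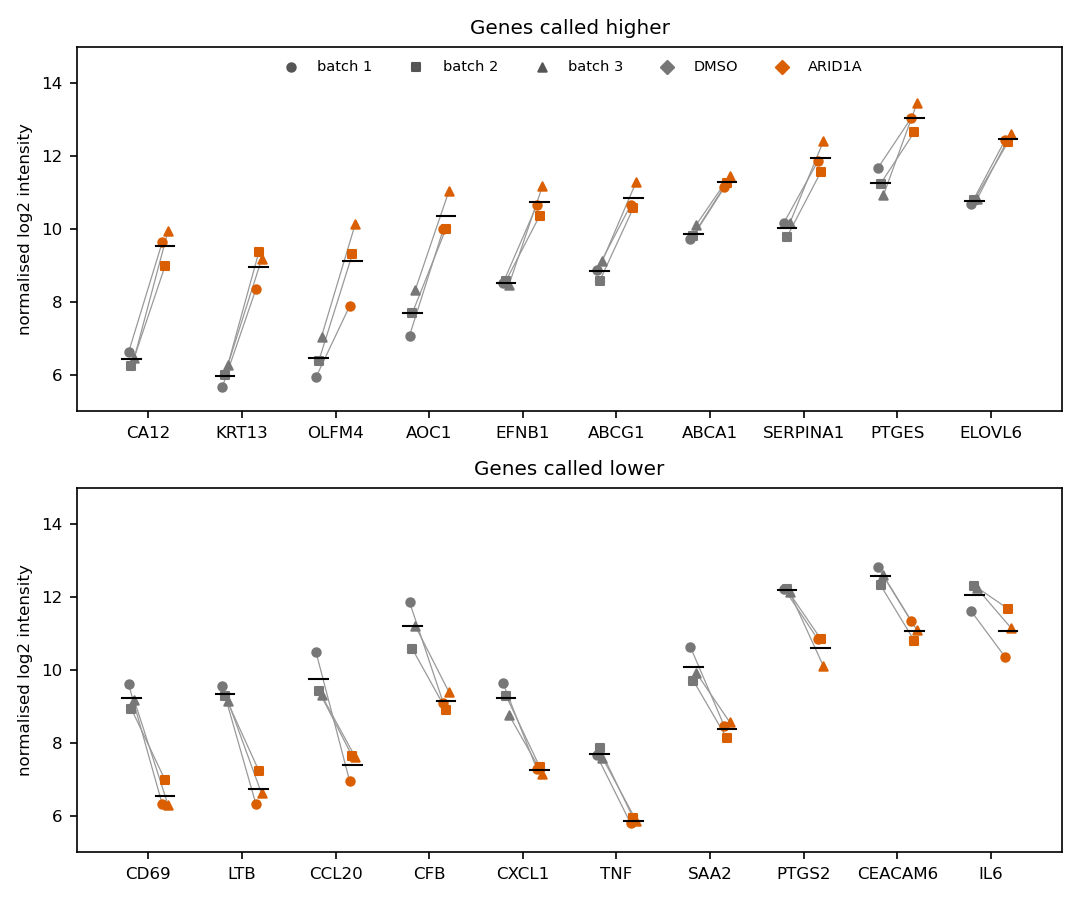
Normalised log2 intensity of 10 genes called higher (upper panel) and 10 called lower (lower panel) on each DMSO array (grey) and ARID1A array (orange). Symbols mark batches 1 to 3, lines join arrays of the same batch and black bars are group means. Every line slopes the same way within a gene, and for IL6 the groups overlap although each batch fell.

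Of 7 keratins tested 4 rose (3.82% of all genes rose) and 3 were not called, with all 7 differences positive and a median of 0.46. KRT8, the keratin of simple epithelia and among the brightest genes, read 15.17, 15.11 and 15.21 in DMSO and 15.63, 15.50 and 15.76 with ARID1A, a rise of 0.46 (SE 0.07, limma adjusted p = 0.0192). KRT80, an epithelial keratin, rose by 0.88 (SE 0.09) and KRT15, a basal keratin, by 0.49 (SE 0.11, limma adjusted p = 0.0454, 0.128 without the block). The other 3 were KRT7 at 0.34, KRT19 at 0.30 and KRT10 at 0.17, none called. With any 1 array left out 2 or 3 keratins were called, and without the block 3.

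Of 24 urothelial and apical membrane genes 5 rose and 1 fell (3.82% of all genes rose and 2.28% fell). Without the block 5 rose and 0 fell, and with any 1 array left out 3 to 5 rose and 0 or 1 fell. ESPN, which bundles actin in microvilli, read 6.16, 6.20 and 6.48 in DMSO and 9.19, 9.24 and 9.42 with ARID1A and had one of the narrowest ranges over batches. It was above background on 0 of 3 DMSO arrays and at least 5.75-fold higher on the background-subtracted scale. UPK2, a uroplakin of the urothelial plaque, was above background on 1 of 3 DMSO arrays and rose by 2.50 (SE 0.27). PDZK1, a scaffold of apical transporters, rose by 1.01 and GRHL3, a transcription factor of barrier epithelia, by 0.60, while CDHR2, a protocadherin of the brush border, fell by 0.64 and lost its call without the block (limma adjusted p = 0.0667). Of 29 junction genes CLDN2 alone was called, and of 18 desmosome and cornified envelope genes none was, with a smallest limma adjusted p of 0.0533 for the serine protease KLK8 (difference 0.39).

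Among 17 ion channels and transport ATPases 4 rose and 1 fell, and among 30 carbonic anhydrases and solute carriers 4 rose and 2 fell (3.82% of all genes rose and 2.28% fell). With any 1 array left out 1 or 2 of the first list rose and 0 fell, and 2 or 3 of the second rose and 0 or 1 fell. SCNN1G, the gamma subunit of the epithelial sodium channel, rose on both of its probes, with fitted differences of 2.34 and 2.16. On the probe with 2.34 it was not above background on every DMSO array, and without background correction that difference was 1.15. KCNN4, a calcium-activated potassium channel, rose by 1.07 (SE 0.21), ATP6V1B1, a proton pump subunit, by 0.67 and ATP1B1, a sodium pump subunit, by 0.47, while the chloride channel ANO1 fell by 0.46. SLC4A11, a membrane transporter of the bicarbonate transporter family, read 9.93, 10.26 and 10.03 in DMSO and 11.48, 11.51 and 11.58 with ARID1A with no overlap (difference 1.45, SE 0.09, limma adjusted p = 0.000837). CA2, a cytosolic carbonic anhydrase and one of the brightest genes that fell, dropped by 0.68 (SE 0.14, limma adjusted p = 0.0349, 0.0521 without the block), in the opposite direction to CA12. The rises of the glucose transporter SLC2A12 (0.61) and the glutamate transporter SLC1A1 (0.46) and the fall of the sulfate transporter SLC26A2 (−0.32) were smaller. Without the block 3 of each list rose and no carbonic anhydrase or solute carrier fell: SLC1A1 (0.346), SLC26A2 (0.0731), ATP1B1 (0.183) and ANO1 (0.216) were not called, while the chloride channel CFTR fell by 0.53 (0.0478, against 0.0510 with the block).

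Glycosylation and surface glycoproteins gave calls both ways (3.82% of all genes rose and 2.28% fell). GALNT16, which adds the first sugar of mucin-type O-glycans, had the largest fitted difference of all genes, although it was above background on 0 of 3 DMSO arrays. It read 6.36, 6.70 and 6.21 in DMSO and 10.30, 9.81 and 10.45 with ARID1A, at least 10.8-fold higher on the background-subtracted scale. A second family member, GALNT18, rose by 1.49 (SE 0.14, limma adjusted p = 0.00349) from 8.14, 8.67 and 8.16 to 9.57, 9.89 and 9.99, and B4GALT1, a galactosyltransferase, by 0.39 (0.114 without the block). No other of the 21 O-glycan enzymes was called, and with any 1 array left out 2 were. MUC16, the CA125 mucin, read 15.42, 15.27 and 15.58 in DMSO and 15.86, 15.75 and 16.05 with ARID1A near the top of the scale and rose by 0.46 (SE 0.07, limma adjusted p = 0.0175, 0.0800 without the block). CEACAM6, a cell adhesion glycoprotein, read 12.83, 12.33 and 12.60 in DMSO and 11.34, 10.81 and 11.09 with ARID1A and fell by nearly the same amount in each batch (difference −1.51, SE 0.17, limma adjusted p = 0.00621), and CEACAM1 fell by 0.50. With any 1 array left out 1 of the 12 mucins and CEACAM glycoproteins rose and 1 fell, against 2 and 2 with all arrays. Each MUC16 array with ARID1A lay above all DMSO arrays and each CEACAM6 array below them.

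Chemokines all had lower means with ARID1A. They recruit leukocytes by their receptors and many are transcribed through NF-kappaB, AP-1 or interferon-regulated factors. To show what the promoters of the 3 that were called hold, the RefSeq sequence from 250 bases before to 50 after the annotated start is printed in build GRCh38.p14, with matches to 6 motifs in capitals: a kappaB-like motif (GGGNNNTTC, found in 15.47% of 35116 promoters of this length on either strand), an AP-1 motif (TGANTCA, 7.709%), an interferon response motif (TTCNNTTTC, 8.107%), TATAAA (11.53%), CCAAT (34.61%) and the octamer ATTTGCAT (1.774%). The CCL20 promoter (chr2:227813592-227813891, plus strand) held a kappaB-like match on the opposite strand at −78 from the start, CCAAT at −156 and −40 and TATAAA at −29. The CXCL1 promoter (chr4:73869143-73869442, plus strand) held a kappaB-like match at −79 that overlaps another at −77 on the opposite strand, and a further one on the opposite strand at −235. The CXCL10 promoter (chr4:76023448-76023747, minus strand) held a kappaB-like match at −177, an interferon response match on the opposite strand at −221 and CCAAT at −66. The kappaB-like and interferon response motifs were shortened by 1 letter after matches to longer forms, which are found in fewer promoters, had been seen. Positions are those of the first base of a match relative to the start, and a match describes the letters only. None of the 3 held the AP-1 motif or the octamer.
CCL20: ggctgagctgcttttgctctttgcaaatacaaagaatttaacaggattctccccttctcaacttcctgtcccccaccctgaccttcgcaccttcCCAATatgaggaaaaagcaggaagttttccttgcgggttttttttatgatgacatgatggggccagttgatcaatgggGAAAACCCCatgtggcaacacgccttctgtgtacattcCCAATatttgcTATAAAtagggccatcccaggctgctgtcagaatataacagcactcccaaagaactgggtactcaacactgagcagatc
CXCL1: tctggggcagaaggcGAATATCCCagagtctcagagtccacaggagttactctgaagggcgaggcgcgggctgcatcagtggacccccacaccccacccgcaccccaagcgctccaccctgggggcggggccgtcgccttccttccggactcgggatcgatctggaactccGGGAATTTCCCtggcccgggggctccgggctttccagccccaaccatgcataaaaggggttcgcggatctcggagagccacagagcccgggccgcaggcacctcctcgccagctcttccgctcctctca
CXCL10: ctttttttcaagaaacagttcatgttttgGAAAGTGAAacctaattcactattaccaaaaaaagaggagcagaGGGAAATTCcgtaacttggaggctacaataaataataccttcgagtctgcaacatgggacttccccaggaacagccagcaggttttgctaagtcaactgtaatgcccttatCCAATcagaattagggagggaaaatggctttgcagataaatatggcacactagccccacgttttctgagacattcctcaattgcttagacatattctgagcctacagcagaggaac

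CCL20, the ligand of CCR6, read 10.51, 9.43 and 9.31 in DMSO and 6.96, 7.63 and 7.62 with ARID1A. All ARID1A arrays lay below all DMSO arrays, with the widest spread between batches of any called gene of at least 2-fold (differences of −3.55, −1.80 and −1.70), and the mean difference was −2.35 (SE 0.38, limma adjusted p = 0.0192). CXCL1, a neutrophil attractant acting on CXCR2, read 9.64, 9.30 and 8.78 in DMSO and 7.28, 7.35 and 7.15 with ARID1A (difference −1.98, SE 0.16, limma adjusted p = 0.00244) and was called in every alternative. CXCL10, an interferon-induced ligand of CXCR3, read 8.70, 8.22 and 8.39 in DMSO and 7.09, 7.25 and 7.10 with ARID1A, without overlap (difference −1.29, SE 0.19, limma adjusted p = 0.0158). Of 9 chemokines tested these 3 fell (2.28% of all genes fell), and all 9 had negative differences, where 6424 of 12698 genes did. The others ran from −0.92 for CXCL2, whose probe may also read the close relatives CXCL1 and CXCL3, to −0.11 for CXCL11. With any 1 of the 6 arrays left out 1 to 3 were called. The list was chosen with earlier results of these data known, so its counts beside those of all genes are not a test.

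Inflammatory signals outside the chemokines divided by gene. TNF, the founding ligand of its family, read 7.66, 7.86 and 7.60 in DMSO and 5.80, 5.94 and 5.88 with ARID1A and was above background on 0 of 3 ARID1A arrays, at least 1.87-fold lower (limma adjusted p = 0.00320). LTB, the membrane anchor of lymphotoxin, read 9.56, 9.29 and 9.16 in DMSO and 6.32, 7.25 and 6.62 with ARID1A and was above background on 1 of 3 ARID1A arrays. CD69, a membrane C-type lectin best known from activated lymphocytes, read 9.61, 8.94 and 9.18 in DMSO and 6.32, 6.98 and 6.31 with ARID1A, also above background on 1 of 3 ARID1A arrays. In these 3 genes no ARID1A array reached the lowest DMSO array. LTB lost its call with 6 of the 9 omissions, CD69 with 2 and TNF with 1. Of 22 TNF family ligands and receptors tested (3.82% of all genes rose and 2.28% fell), TNF and LTB fell and TNFRSF19, a receptor of the family, rose by 0.61 (limma adjusted p = 0.0224, 0.0539 without the block). In this list 0 rose and 1 to 3 fell with any 1 array left out.

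Among 22 interleukins and their receptors 3 fell and 1 rose (3.82% of all genes rose and 2.28% fell). IL6, a cytokine that drives the acute-phase response, read 11.61, 12.32 and 12.25 in DMSO and 10.37, 11.69 and 11.17 with ARID1A, and ARID1A replicate 2 lay above DMSO replicate 1, so that the groups overlapped. The differences within batches were −1.25, −0.64 and −1.08, with a limma adjusted p of 0.0154 with the block and 0.155 without it. IL17RB, an interleukin 17 family receptor, fell by 0.87 and IL15RA, the interleukin 15 receptor chain, by 0.49 (0.10 without the block). The inflammatory cytokine IL1B was called in the opposite direction: it was above background on 0 of 3 DMSO arrays and read 8.28, 7.65 and 8.68 with ARID1A, a rise of at least 2.71-fold at a limma adjusted p of 0.0132. The call of IL1B is likewise not independent of the filter on dim probes. The receptor antagonist IL1RN had a difference of −0.58 and was not called. Without the block 1 of the list rose and 1 fell, and with any 1 array left out 0 or 1 rose and 0 to 3 fell.

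The feedback inhibitor TNFAIP3, which removes ubiquitin chains in NF-kappaB signalling, was one of the genes whose call depended on the block. It read 9.59, 8.94 and 8.80 in DMSO and 8.40, 7.88 and 7.36 with ARID1A, with differences within batches of −1.20, −1.06 and −1.44. The limma adjusted p was 0.00323 with the block, and the call held with every array or batch left out, but without the block the adjusted p was 0.106. Of 23 NF-kappaB regulators and feedback genes it was the one called (4.35%, against 6.1% of all genes), and the subunit transcripts RELA (−0.17), NFKB1 (−0.14) and RELB (−0.37) were not. The list median was −0.18, and with any 1 array left out 1 or 2 of the list fell.

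Acute-phase and complement genes gave 4 falls and 2 rises among 18 (3.82% of all genes rose and 2.28% fell). CFB, complement factor B, read 11.87, 10.58 and 11.22 in DMSO and 9.11, 8.92 and 9.41 with ARID1A (difference −2.08, SE 0.25, limma adjusted p = 0.00832). SAA2, serum amyloid A2, whose near-identical copy SAA1 may contribute to its signal, read 10.63, 9.72 and 9.94 in DMSO and 8.48, 8.13 and 8.57 with ARID1A (difference −1.70, SE 0.20). Both fell in each batch with no overlap. C3, the central complement component, fell by 0.83 and CFD, factor D, by 0.45, both lost without the block (0.115 and 0.153). SERPINA1, alpha-1 antitrypsin, an acute-phase protein of the liver, rose instead from 10.18, 9.79 and 10.16 to 11.86, 11.56 and 12.42 (difference 1.90, SE 0.15, limma adjusted p = 0.00249), and CFI, the complement inhibitor factor I, rose by 0.61. The list median over batches 1, 2 and 3 was −0.62, −0.42 and 0.15, so that its direction turned in batch 3. Without the block 2 fell and 2 rose, and without DMSO replicate 1 none fell.

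Enzymes of prostaglandin synthesis were called both ways, 2 higher and 2 lower of 15 tested (3.82% of all genes rose and 2.28% fell). PTGS2, the inducible cyclooxygenase, read 12.24, 12.22 and 12.13 in DMSO and 10.85, 10.86 and 10.11 with ARID1A on one probe (difference −1.59, SE 0.15, limma adjusted p = 0.00378), and its other probe differed by −1.65. PLA2G4A, the phospholipase that releases arachidonic acid, fell by 0.61 (SE 0.11). PTGES, the synthase that turns the cyclooxygenase product into prostaglandin E2, read 11.67, 11.25 and 10.93 in DMSO and 13.06, 12.66 and 13.46 with ARID1A (difference 1.78, SE 0.26, limma adjusted p = 0.0151). PLA2G10, a secreted phospholipase, rose by 1.00 (SE 0.12). For PTGS2 and PTGES alike the groups did not overlap, and the other 11 of 15 genes tested were not called. Without DMSO replicate 1 or DMSO replicate 3 none of the list rose, and with any 1 array left out 1 or 2 fell.

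Interferon-stimulated and MHC genes had a median of −0.19, with 36 of 43 differences negative, but only CD74, the MHC class II chaperone, GBP1, an interferon-induced GTPase, and IRF1, an interferon-regulated factor, fell, by 1.07, 0.53 and 0.39. The calls were 6.98% of the list, against 6.1% of all genes. The median over batches was −0.23, −0.35 and 0.03, and without the block GBP1 alone was called (limma adjusted p = 0.0323). Leaving out any 1 array left 0 or 1 fall in the list. Of 30 MAPK feedback and immediate early genes 3 fell and none rose (3.82% of all genes rose and 2.28% fell). MYC, a growth-promoting transcription factor, read 14.41, 14.35 and 14.16 in DMSO and 13.77, 13.83 and 13.27 with ARID1A (difference −0.68, SE 0.13, limma adjusted p = 0.0284, 0.0865 without the block), and its second probe differed by −0.52. FOS, an AP-1 subunit, fell by 0.73 and SPRY2, an inhibitor of receptor tyrosine kinase signalling, by 0.43 (0.0921 without the block), so that FOS alone was called without it, and with any 1 array left out 0 or 1 of the list was. Among 12 EGFR ligands and receptors the ligand HBEGF rose by 0.55 (limma adjusted p = 0.0424, 0.152 without the block), and with any 1 array left out none was called.

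Histone genes formed the list with the highest median of the 31, and the promoters of the 4 called members with the largest differences are shown because many histone promoters share CCAAT, octamer and TATA elements. The H4C8 promoter (chr6:26285485-26285784, minus strand) held none of the 6 motifs in this window. The H2BC8 promoter (chr6:26216639-26216938, minus strand) held CCAAT at −168 on the opposite strand and at −138 and −78, the octamer at −48, TATAAA at −32 and an interferon response match at −242 on the opposite strand. The H2AC18 promoter (chr1:149842701-149843000, minus strand) held CCAAT at −97 on the opposite strand and at −68, and TATAAA at −31. The H3C10 promoter (chr6:27809801-27810100, plus strand) held CCAAT at −96 and −54, TATAAA at −32 and an interferon response match at −13.
H4C8: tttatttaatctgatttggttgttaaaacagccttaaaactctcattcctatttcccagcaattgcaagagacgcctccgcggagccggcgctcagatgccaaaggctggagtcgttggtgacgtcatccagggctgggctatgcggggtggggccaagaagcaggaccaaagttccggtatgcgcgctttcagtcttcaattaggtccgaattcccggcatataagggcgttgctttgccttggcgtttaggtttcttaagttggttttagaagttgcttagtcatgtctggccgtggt
H2BC8: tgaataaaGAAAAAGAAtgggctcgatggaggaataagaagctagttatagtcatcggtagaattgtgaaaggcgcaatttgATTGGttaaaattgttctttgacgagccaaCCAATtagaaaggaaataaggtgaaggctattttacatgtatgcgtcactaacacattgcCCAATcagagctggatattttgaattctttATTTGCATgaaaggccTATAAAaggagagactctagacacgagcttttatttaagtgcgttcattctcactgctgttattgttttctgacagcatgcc
H2AC18: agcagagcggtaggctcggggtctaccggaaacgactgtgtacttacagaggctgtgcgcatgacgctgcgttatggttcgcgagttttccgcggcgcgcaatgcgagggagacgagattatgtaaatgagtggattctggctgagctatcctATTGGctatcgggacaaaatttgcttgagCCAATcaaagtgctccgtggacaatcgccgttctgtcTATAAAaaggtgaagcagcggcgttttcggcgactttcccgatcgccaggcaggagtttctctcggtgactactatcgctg
H3C10: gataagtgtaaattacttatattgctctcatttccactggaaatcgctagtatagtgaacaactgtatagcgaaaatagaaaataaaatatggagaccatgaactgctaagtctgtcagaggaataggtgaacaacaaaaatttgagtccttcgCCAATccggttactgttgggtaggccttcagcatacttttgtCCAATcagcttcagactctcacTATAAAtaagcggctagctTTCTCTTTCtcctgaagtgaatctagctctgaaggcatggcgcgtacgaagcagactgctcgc

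H4C8, a histone H4 gene, read 8.56, 9.43 and 9.03 in DMSO and 10.25, 10.46 and 10.93 with ARID1A (difference 1.54, SE 0.16, limma adjusted p = 0.00474). H2BC8, a histone H2B gene, read 7.29, 8.14 and 7.89 in DMSO and 8.64, 9.04 and 9.46 with ARID1A (limma adjusted p = 0.101 without the block), and H3C10, a histone H3 gene, read 7.31, 8.08 and 7.31 in DMSO and 8.54, 8.95 and 8.75 with ARID1A. H2AC18, a histone H2A gene, read 10.72, 11.01 and 11.16 in DMSO and 11.93, 12.20 and 12.58 with ARID1A (difference 1.27, SE 0.17), and its near-identical neighbour H2AC19 rose by 1.08, so that these 2 are not independent. In each of the 4 printed genes every ARID1A array lay above every DMSO array, and DMSO replicate 1 was the lowest or joint lowest array. H2BC5 was one of the brightest genes called at 12.88, 13.41 and 13.32 in DMSO and 13.78, 14.22 and 14.17 with ARID1A (difference 0.85, SE 0.07, limma adjusted p = 0.00319, 0.0560 without the block), and H2BC12, at levels above 14, rose by 0.55 (0.121 without the block).

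Of 25 core and linker histone genes tested 15 rose and none fell (3.82% of all genes rose), 22 differences were positive and the median was 0.79. The negative ones were H2AZ1 at −0.19, H1-10 at −0.13 and H4C3 at −0.05. Without the block 6 of the 15 calls were left, and with any 1 of the 6 arrays left out 3 to 13 rose, fewest without DMSO replicate 3. Histone genes of one class are close copies, and a probe may read several of them, so that the 15 calls count fewer independent transcripts. The list was chosen with earlier results of these data known, so its share beside that of all genes is not a test. Replication-dependent histone transcripts are made in S phase and end in a stem-loop in place of a poly(A) tail. In the cell cycle list 1 of 38 genes rose (CDKN1A) and 1 fell (ECT2), so that 5.26% were called against 6.1% of all genes. The differences of 33 were negative, with a median of −0.13 over all and of −0.03, −0.09 and −0.25 in batches 1, 2 and 3. Any part of cell cycle or RNA handling in the histone values was not tested.

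**Figure D3:**
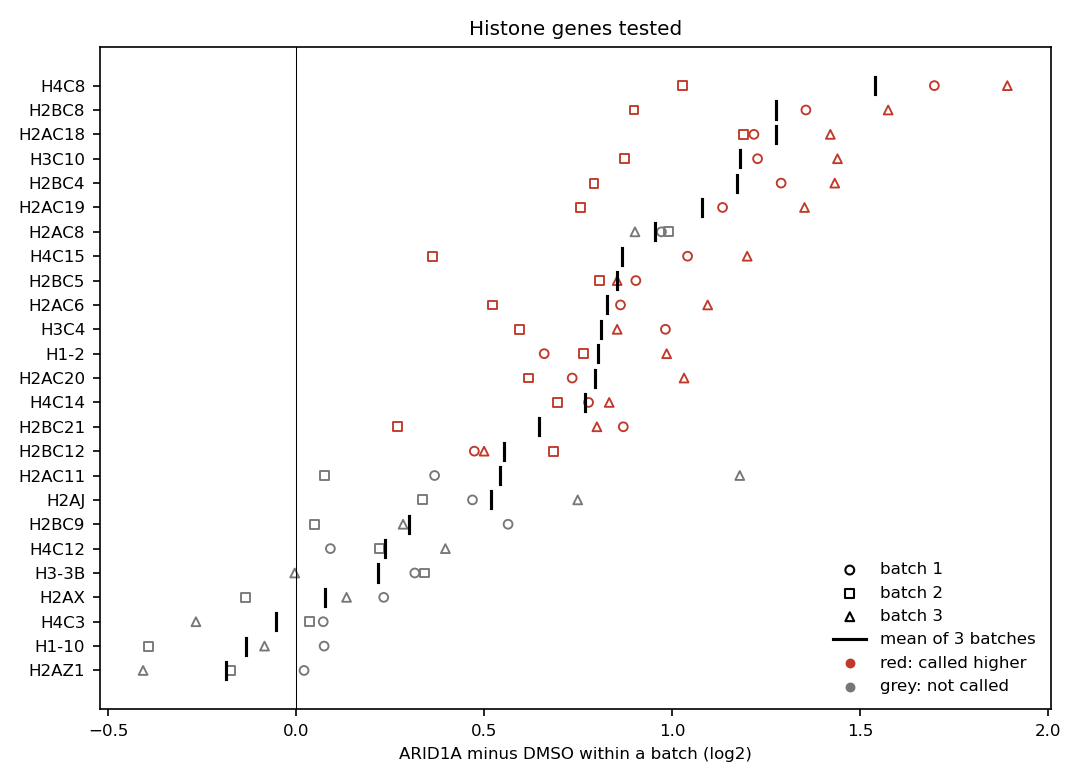
Difference between ARID1A and DMSO within each batch (horizontal axis, log2) for the 25 histone genes tested, ordered by mean. Circles, squares and triangles are batches 1, 2 and 3, bars are means, and the 15 genes called higher are red; in most of them the batch 2 difference is the smallest.

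CDKN1A, the p21 inhibitor of cyclin-dependent kinases, read 14.84, 15.26 and 15.18 in DMSO and 15.41, 15.68 and 15.70 with ARID1A (difference 0.50, SE 0.09, limma adjusted p = 0.0221, 0.150 without the block). DMSO replicate 1 was the lowest array, and the lowest ARID1A array was above the highest DMSO array. ECT2, an exchange factor of cytokinesis, fell evenly by 0.60 (SE 0.07, limma adjusted p = 0.00837) from 13.13, 13.11 and 13.07 to 12.58, 12.57 and 12.37. Among 29 apoptosis regulators the BH3-only killers parted: BMF rose by 1.11 (SE 0.16), while PMAIP1 fell by 0.62 (SE 0.08) and HRK by 0.71 (limma adjusted p = 0.0497, 0.0763 without the block). With all arrays 10.3% of the list was called, against 6.1% of all genes. Leaving out any 1 array left 0 or 1 rise and 0 to 2 falls in this list.

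Of 37 extracellular matrix genes, laminins and integrins 8 rose and none fell (3.82% of all genes rose and 2.28% fell), 24 differences were positive and the median was 0.15. This compares with 3 rises without the block and 2 to 4 with any 1 array left out. THBS1, the matricellular thrombospondin, read 8.51, 8.60 and 7.94 in DMSO and 9.50, 9.46 and 8.96 with ARID1A (difference 0.96, SE 0.12, limma adjusted p = 0.00956). LAMB2, a laminin chain of basement membranes, rose by 0.86 (SE 0.12), and the epithelial integrin subunit ITGB6 by 0.70 (0.105 without the block), ITGB3 by 0.66 (0.0892) and ITGA6 by 0.57 (0.0653). TNC, the matrix glycoprotein tenascin C, rose by 0.72 (SE 0.08) on its brighter probe, from 9.57, 9.40 and 9.44 to 10.19, 10.09 and 10.30, and by 2.51 on the other.

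Lysosome genes gave 5 rises and no fall among 33 (3.82% of all genes rose and 2.28% fell), with a median of 0.18. The protease cathepsins CTSD and CTSV rose by 0.51 and 0.46, the glycosidases NEU1 and MAN2B1 by 0.49 and 0.52 and the membrane glycoprotein GPNMB by 0.78. Without the block CTSD and MAN2B1 were called, and with any 1 array left out 0 to 3. Of 22 protease inhibitors and secreted proteases 6 rose and 2 fell, against 4 and 0 without the block. With any 1 array left out 0 to 3 rose, none without DMSO replicate 1 or DMSO replicate 3, and 0 or 1 fell. TMPRSS2, a membrane serine protease, rose by 1.59 (SE 0.32, limma adjusted p = 0.0359), PRSS23 by 0.77 and the cysteine protease inhibitor CST6 by 0.61, and SERPINB9, an inhibitor of granzyme B, fell by 0.80 (0.183 without the block).

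Of the signalling lists 11.8% (PI3K-AKT and FOXO), 14.3% (Wnt and Notch) and 9.09% (TGF-beta and BMP) were called, against 6.1% of all genes. Of 34 PI3K-AKT and FOXO genes 4 rose and none fell. PIK3IP1, an inhibitor of PI3 kinase, rose by 0.91 (SE 0.21) at a limma adjusted p of 0.0499, next to the limit, the regulatory subunit PIK3R3 by 0.65, and the phosphatases INPP5D and PHLPP2 by 0.43 and 0.45. All but INPP5D and PIK3IP1 lost the call without the block, and with any 1 array left out at most 1 of the list was called. Of 35 Wnt and Notch genes 4 fell and 1 rose (3.82% of all genes rose and 2.28% fell). The receptors FZD7 and FZD4 fell by 0.61 and 0.41, the Wnt inhibitor NKD2 by 0.69 (SE 0.07, limma adjusted p = 0.00474) and the Notch ligand DLL1 by 0.68, while RNF43, a ubiquitin ligase that removes Frizzled receptors, rose by 0.59. Without the block NKD2 and FZD7 remained called, and with any 1 array left out 1 of the list fell and 0 rose. LTBP3, which tethers latent TGF-beta, rose by 1.14 (SE 0.10, limma adjusted p = 0.00319) and BAMBI, a decoy receptor of the family, by 0.68, the 2 calls among 22 genes of that list, of which 1 was left with any 1 array left out.

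Among 35 lineage transcription factors and nuclear receptors 3 rose and 2 fell (3.82% of all genes rose and 2.28% fell), with a median of 0.00. With any 1 array left out 1 to 3 rose and 0 or 1 fell. The repressor BCL6 read 10.82, 10.84 and 10.90 in DMSO and 11.87, 11.66 and 12.05 with ARID1A (difference 1.01, SE 0.10, limma adjusted p = 0.00415). The homeobox factor MEIS2 rose by 0.74 and the repressor BHLHE41 by 0.64 (0.163 without the block), and FOXA2 and KLF5, factors of endodermal and other epithelia, fell by 0.62 and 0.48 (0.0514 for KLF5 without the block). WT1, a marker of serous ovarian carcinoma, fell by 0.52 from 8.54, 8.02 and 8.53 to 7.90, 7.65 and 7.98, a call that was lost without the block (0.170). Of 24 genes of retinoid and aldehyde metabolism ADH1C and the aldo-keto reductase AKR1B10 (1.31) rose, and CYP26A1, which degrades retinoic acid, fell by 1.26 (limma adjusted p = 0.00876, 0.0667 without the block), and with any 1 array left out 1 or 2 of them rose and 0 or 1 fell. AKR1B10 was not above background on every DMSO array, and without background correction its difference was 0.54. Of 19 other SWI/SNF subunits the ATPase SMARCA2 alone was called, at 13.19, 13.25 and 13.17 in DMSO and 13.63, 13.57 and 13.58 with ARID1A (difference 0.39, SE 0.08), and it lost its call with any 1 array left out.

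Among 25 muscle and neuronal genes 5 rose and 2 fell (3.82% of all genes rose and 2.28% fell), and with any 1 array left out 1 to 3 rose and 0 to 2 fell. MYL4, an atrial and embryonic myosin light chain, read 6.36, 6.39 and 6.97 in DMSO and 9.80, 9.85 and 10.31 with ARID1A (difference 3.41, SE 0.23, limma adjusted p = 0.00113), with 1 of 3 DMSO arrays above background. L1CAM and NRCAM, neural adhesion molecules, rose by 1.11 and 0.60 and the non-muscle myosin heavy chain MYH9 by 0.48. FEZ1, an axonal transport adaptor, fell by 2.23 on its brightest probe, with 10.06, 9.22 and 9.36 in DMSO and 7.03, 7.26 and 7.66 with ARID1A, and its other probes differed by −0.46 and −0.16. STMN3, a microtubule-destabilising stathmin of neurons, was bright at 14.37, 13.93 and 14.17 in DMSO and 13.20, 13.08 and 13.29 with ARID1A and fell by 0.96 (SE 0.13).

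**Figure D4:**
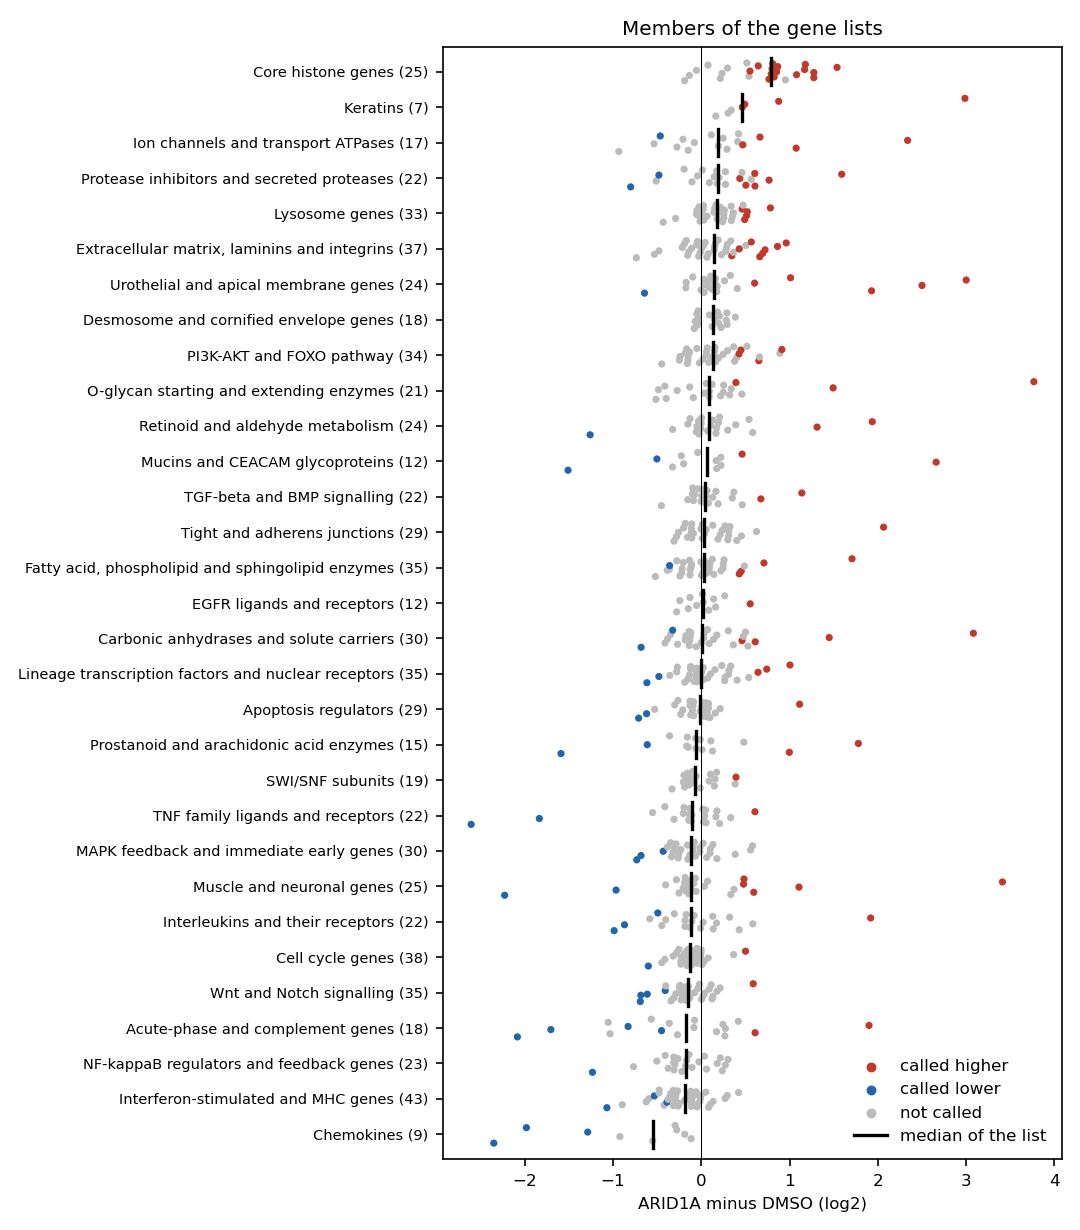
Differences between ARID1A and DMSO (horizontal axis, log2) of the tested members of the 31 gene lists, ordered by list median (black bar), with the number tested in parentheses. Red members were called higher, blue called lower and grey not called; the histone list lies furthest to the right with a median of 0.79 and the chemokine list furthest to the left with −0.55.

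Among the brightest 10% of genes, where a small log2 change is a large change of linear signal, the 6 largest rises among called genes were those of H2BC5, H2BC12, ADGRG1, CD9, PEA15 and CDKN1A. Signals of different probes do not measure the amounts of their transcripts against each other. TXNIP had a difference of 0.89 and SLC2A1 of 0.53, and neither was called. ADGRG1, an adhesion receptor, rose by 0.55 (SE 0.08) and the tetraspanin CD9 by 0.51 (SE 0.08). The largest fall was that of SRGN, the proteoglycan serglycin, at 14.87, 14.46 and 14.80 in DMSO and 14.10, 13.33 and 13.39 with ARID1A (difference −1.10, SE 0.13, limma adjusted p = 0.00771). HAS3, a hyaluronan synthase, fell by 0.56 and FGFBP1, a carrier of fibroblast growth factors, by 0.56, both with limma adjusted p-values above 0.05 without the block (0.0758 and 0.141). FGFBP1 was the one of these 12 genes whose groups overlapped.

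Further large falls had 1 sign in each batch and varied with the choice of model. GJA3, a gap junction connexin, fell by 1.30 and VCX, one of several near-identical X-linked genes, by 1.12, both lost without the block (0.0656 and 0.0540). TCN1, a carrier of vitamin B12, fell by 1.16 and CDHR1, a photoreceptor protocadherin, was above background on 0 of 3 ARID1A arrays and at least 1.75-fold lower. KCNQ3, a voltage-gated potassium channel, read 11.52, 11.25 and 11.06 in DMSO and 10.44, 10.19 and 9.90 with ARID1A (difference −1.10, SE 0.07, limma adjusted p = 0.00104). The differences of KCNQ3 in the 3 batches were −1.08, −1.06 and −1.16, although batch 1 was the highest and batch 3 the lowest in both groups.

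The widest spread over batches among called genes of at least 2-fold was seen, beside CCL20, in MB, SULT1C2 and LRRC32. MB, the oxygen carrier myoglobin, was above background on 0 of 3 DMSO arrays and read 7.71, 7.61 and 9.11 with ARID1A, with replicate 3 well above the others. SULT1C2, a sulfotransferase, read 7.15, 6.89 and 8.26 with ARID1A and LRRC32, a receptor of latent TGF-beta, 7.78, 6.97 and 8.13, and replicate 2 was the lowest in both. These 2 genes were also above background on 0 of 3 DMSO arrays, and were at least 1.59-fold and 1.82-fold higher. The fitted difference of SULT1C2, taken against a DMSO signal below background, dropped from 1.26 to 0.79 without batch 3. Its limma adjusted p without the block was 0.0617.

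Other probes of the called genes were read as a check on the representing probe. Of 248 such probes 220 had the same sign, 56 were called in the same direction and 0 in the opposite one. Over all 23014 kept probes 2.72% were called. The other probes read the same RNA on the same arrays for genes already called, so these counts are not independent support for a call. Sizes differed most for ABCG1, TNC, FEZ1, ANKRD35, LTB and CD69, and for ANKRD35 the second probe rose by 0.70 against 2.11.

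GSK126 values, which share the DMSO arrays with the comparison above, are given side by side only for its 40 largest changes. For the 20 rises the GSK126 minus DMSO difference lay between −0.40 (GABBR2) and 0.57 (OLFM4), where ARID1A minus DMSO was 1.93 to 3.77. As 10 of these 20 genes were above background on 0 of 3 DMSO arrays and 4 on 1 of 3, both differences are fitted values against a dim signal and not measured folds. For the 20 falls it lay between −0.98 (TNF) and 0.72 (PTGS2), where ARID1A minus DMSO was −2.71 to −1.07.

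**Figure D5:**
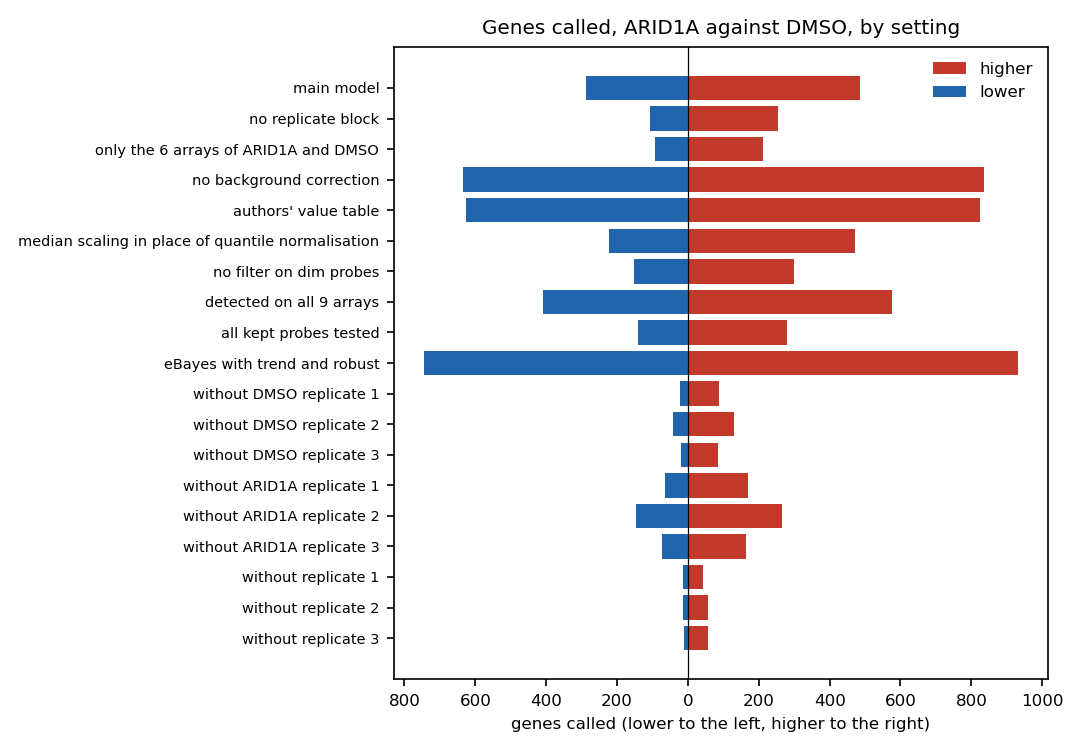
Number of genes called lower (blue, to the left) and higher (red, to the right) with ARID1A against DMSO under the main model and each alternative. Rises outnumber falls under every setting shown, from 932 and 746 with a trended and robust prior to 43 and 14 without batch 1.

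The calls of single genes depended on the setting. Of 146 called genes named by rule, 17 were called in every alternative that gave a value: ABCA1, ANKRD35, AOC1, CA12, CLDN2, CXCL1, DENND2A, ELOVL6, ESPN, GALNT16, GDPD5, KCNQ3, KRT13, MYL4, SERPINA1, SLC4A11 and VWF. Among these, CA12, CLDN2, DENND2A, ESPN, GALNT16, KRT13 and VWF were below background on every DMSO array. The setting that required detection on all 9 arrays gave no value for those genes. A further 32 lost the call in each of the 9 settings that leave out an array or a batch, among them MUC16, SMARCA2, PIK3IP1, HAS3 and ITGA6. With any 1 of the 6 arrays left out, 46 (without DMSO replicate 3) to 101 (without ARID1A replicate 2) of the 146 were called. None of the 146 changed sign under any of the 18 alternatives that gave a value, but this outcome was largely fixed in advance. All called genes had 1 sign in the 3 batches. The fits without the block, on the 6 arrays alone, over all kept probes and with another prior keep the same difference.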

How the data were processed

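RNA of OVISE cells with induced ARID1A and with DMSO was measured on 3 arrays a group, and 3 arrays with GSK126 entered the fit. Raw probe values were deposited on a linear intensity scale, each beside the authors' detection p-value, made against negative controls not used here. Per the submitters' processing notes the table came from GenomeStudio. Its version and the array's build are not given in the sources used here. A second deposited table holds the authors' intensity values after normalisation. It kept each array's order (rank correlation 1), shared medians of 329.794 to 329.797 and served as an alternative.

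In R 4.3.3 the neqc function of limma 3.58.1 subtracted background, with negative controls inferred from detection p-values, added 16, equalised the quantiles and took log2. A probe was kept if its detection p was below 0.05 on 3 or more of the 9 arrays (23014 of 47323). The platform annotation gave 1 symbol to 30113 probes, several to 8 and none to 17202, and 30074 symbols were updated through Entrez identifiers to RefSeq names of GRCh38.p14. The kept probe of highest mean level represented each of 12698 genes. Group and batch were terms of 1 linear model of all 9 arrays (lmFit and eBayes, 4 residual degrees of freedom), with two-sided tests and a Benjamini-Hochberg threshold of 0.05 over all genes. All adjusted p-values of genes come from limma. Values without the batch term (6 residual degrees of freedom) stand beside the genes and lists named where they change a call or move a count by over 1.5 times. The labels give each replicate number as a batch, which pairs the samples: deviations from group means correlated at 0.102 to 0.326 for the 9 pairs of arrays of a batch and at −0.227 to 0.042 for the 18 other pairs. The scripts were tested on simulated data.

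The comparison, the 31 lists and the naming rule were chosen with earlier results of these data known. The rule took the 20 largest rises and falls, the 6 largest each way among the brightest 10% of genes, the 4 widest and 4 narrowest over batches among called genes of at least 2-fold, up to 6 called members of each list (or the 2 with the smallest p), genes with discordant probes, ARID1A and the marker genes. List members named without a call were added to show the rest of a list.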

Additional observations from a re-analysis of the deposited data

How the results depend on the processing

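The counts of called genes (485 higher, 289 lower) moved by over 1.5 times with most choices, and the cause was not tested unless a setting's construction shows it. Without the replicate block, which leaves batch in the spread, 255 rose and 106 fell; with only the 6 arrays, which leaves 2 residual degrees of freedom, 212 and 93. Testing genes without the filter on dim probes (20046 genes) gave 299 and 152, and adjusting over all kept probes gave 280 and 141. More genes were called without background correction (835 and 634), in the authors' value table (825 and 626) and with a trended and robust prior (932 and 746). Median scaling (472 and 222) and detection on all 9 arrays (576 and 410) stayed within 1.5 times. With any 1 of the 6 arrays left out 85 to 266 rose and 19 to 147 fell, and with a whole batch left out 43 to 58 and 11 to 14; each omission takes away residual degrees of freedom. The share of calls that were higher was 62.7%, and 70.6% without the block. Of 146 called genes named by rule, 51 lost the call without the block, 9 with median scaling and 36 over all kept probes. None changed sign, but without the block and over all kept probes none could, because the difference stays the same. With 3 arrays a group, an uncalled gene is not shown to be unchanged. A group below background on all 3 arrays gives only a bound, and that bound depends on the background correction: over the 146 genes the log2 difference without it was 0.390 to 0.995 times the main one (median 0.762), and on the authors' normalised values 0.400 to 1.03 times.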

Other observations

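Beyond the lists and the naming rule, 644 of the 774 called genes lay in none of the lists, and those named here were chosen after their values were seen. The epithelial transcription factor SPDEF, known for driving secretory cell fate, rose by 1.63, and PIGR, the receptor that carries immunoglobulin A across epithelia, was above background on 0 of 3 DMSO arrays and at least 1.97-fold higher. STC1, a secreted glycoprotein hormone, differed by 1.51 and was above background on 2 of 3 DMSO arrays. The blood cell and epithelial transcription factor RUNX1 rose by 1.16, and the vasoconstrictor EDN1 by 1.21. The histone genes H4C5 (1.68) and H2BC6 (1.19), which were not on the list, rose as well, with 1 and 2 of 3 DMSO arrays above background.

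Falls outside the lists included the sialomucin CD34 at −1.03, the matricellular protein CCN2 at −0.95, the scavenger receptor protein DMBT1 at −0.92 and the adaptor TRAF5 at −0.90. The calls of CCN2, DMBT1, TRAF5 and RUNX1 were lost without the batch block. LRRK2, a large kinase, was above background on 0 of 3 ARID1A arrays and at least 1.19-fold lower. VCX3A and VCX3B, near-identical copies of VCX, differed by −0.85 and −0.89 and may share probes with it.

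Over all 23014 kept probes 405 (1.76%) were called higher and 222 (0.965%) lower (limma with the block). Of the 5947 kept probes without a single gene symbol, 57 were called higher and 48 lower in the same fit. The largest of these, ILMN_1776181, read 11.32, 10.88 and 10.94 in DMSO and 9.03, 8.96 and 8.72 with ARID1A, a difference of −2.14 (SE 0.16), and the gene it measures is not named here.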
